A study of Mus musculus with 35 samples.

Results

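The comparison described here set 10 primary enteric glial cell cultures grown on laminin against 10 grown on Matrigel, out of 35 libraries in the series. Each coating had 5 naive cultures, kept in control serum-free medium, and 5 cultures treated with IL-1β for 24 h, and the treatment was a term in the fit, so that the single matrix protein and the mixed matrix were compared with 10 libraries a side. The libraries were chosen by their labels for coating and treatment alone. The cells came from the muscularis externa of the small intestine of adult wildtype mice on a BL6 background. They were kept as neurospheres in proliferation medium for 7 days and differentiated on the coating for 3 days per the labels, where the study's methods give a longer time for cultures treated with IL-1β. The libraries of a group are labelled as biological replicates, without the mouse each came from. The coatings were prepared at different protein concentrations, so the nature of the coating and its amount cannot be told apart.

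Laminins are heterotrimers of an α, a β and a γ chain and are the main adhesive proteins of basement membranes, the thin matrix sheets on which glia, muscle and epithelia rest. Cells bind them through the integrins α3β1, α6β1, α6β4 and α7β1 and through dystroglycan. Matrigel is a basement membrane extract of a mouse sarcoma and holds laminin together with collagen IV, nidogen (entactin), perlecan and growth factors such as TGF-β, IGF, FGF and EGF. Collagen is bound by the integrins α1β1, α2β1, α10β1 and α11β1 and by the discoidin domain receptors. A cell on Matrigel therefore meets the ligand offered by laminin and several that laminin alone does not offer, and the question was which transcripts differ between them.

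The values are gene counts from 3' end sequencing that were scaled between libraries, called normalized counts here. They do not grow with the length of a transcript. The 20 libraries summed to between 8181270 and 9185840 normalized counts, and between 11945 and 12602 genes lay above 15 in each. Correlations between libraries of 1 group ranged from 0.773 to 0.901 on the log2 scale. Differences are given as laminin minus Matrigel on the scale of log2(normalized count + 2), which understates the change of low genes, with standard errors (SE) and 95% confidence intervals from limma.

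No transcript was called different between laminin and Matrigel with limma. For the naive cultures, the study itself reported a few genes between these coatings at an FDR (adjusted p) under 0.05, using DESeq2. Of 19271 genes tested, 0 passed an adjusted p of 0.05 (0%), and the smallest adjusted p was 0.95. At an unadjusted p under 0.05 stood 621 genes (3.22%), 306 with the larger value on laminin and 315 with the larger value on Matrigel. limma-voom, a version of the test that weights each value by its expected precision, called 0 genes as well, with 688 genes at an unadjusted p under 0.05 and a smallest adjusted p of 0.354. The differences centred on 0, with a median of 0.0034 and 50.4% of genes above 0. With the treatments pooled and the treatment effect left in, there was no gene (0 of 19271, 0%) whose 10 laminin values all lay on 1 side of its 10 Matrigel values. Because a response to IL-1β can by itself make the pooled values overlap, this count does not cover separation within a treatment.

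The same libraries and the same fit did call genes for the cytokine. IL-1β against naive gave 930 genes (4.83%), 446 higher and 484 lower. With 10 libraries a side and the treatment as a term, Matrigel against poly-L-ornithine, a synthetic polycation without adhesion ligands, gave 34 of 19496 genes (0.174%; 25 higher and 9 lower), and laminin against poly-L-ornithine gave 15 of 19502 (0.0769%; 12 higher and 3 lower). With the rank of the library serial number as a replicate block, an alternative chosen after seeing the data, these counts were 177 and 113. These comparisons share the Matrigel or the laminin libraries with the one described here. Over the whole transcriptome, coating accounted for 5.23% of the variance left after the treatment means were removed. An exact permutation test over all 63504 relabellings of the libraries within treatment gave p = 0.938 (one-sided, pseudo-F = 0.938), and the relabelled libraries gave 5.56% on average.

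**Figure D1:**
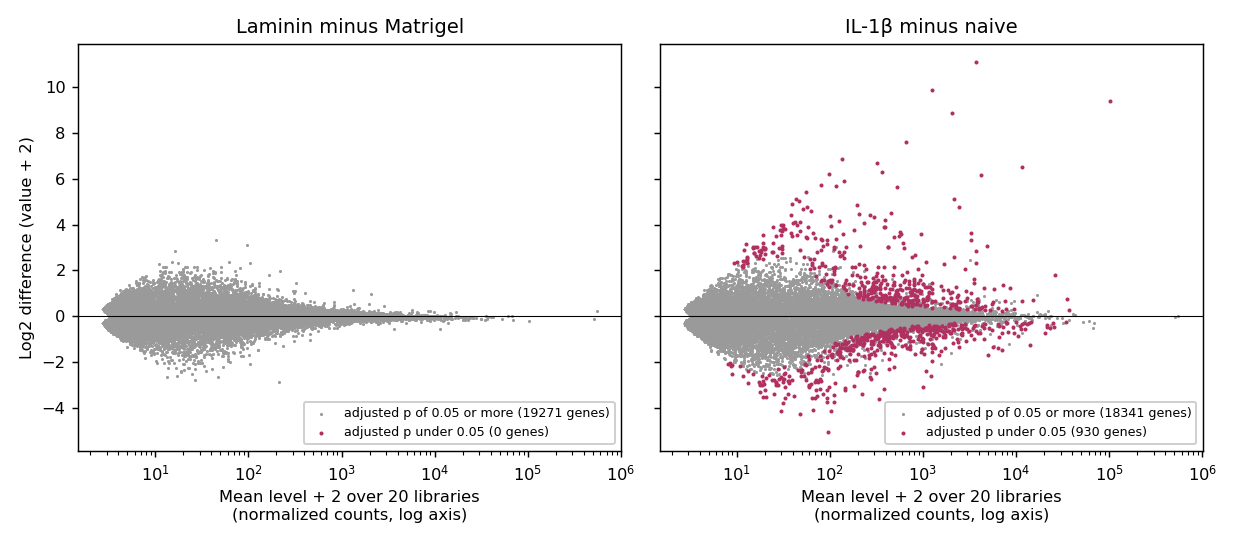
Each point is 1 of 19271 genes, with its mean level over the 20 libraries on the log horizontal axis and its log2 difference on the vertical axis, for laminin minus Matrigel (left) and IL-1β minus naive (right) in the same fit. No point on the left and 930 points on the right carry the colour of an adjusted p under 0.05.

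How large a difference the intervals left possible depended on the level of the gene. The 95% interval of the difference lay within a 2-fold change in either direction for 7506 genes (38.9%). Among the 1457 genes with a mean of 1000 normalized counts or more, 1425 (97.8%) had an interval within 2-fold and 1322 (90.7%) within 1.5-fold. Among 4364 genes between 200 and 1000, 4120 (94.4%) lay within 2-fold. The share was 40.7% of 4379 genes between 50 and 200, and 1.97% of 9071 genes under 50. Well expressed genes were thus bounded closely, whereas most intervals of genes under 50 normalized counts left a 2-fold difference possible. The intervals are not adjusted for the number of genes, so they do not say which differences would have been called.

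The receptors for laminin were present on both coatings, and 0 of 8 were called or had an unadjusted p under 0.05. Their median difference was -0.10, beside 0.0034 over all genes, and 7 of the 8 intervals lay within 2-fold. Itgb1 (chr8:128685654-128733579), the β1 chain shared by most matrix integrins, ran from 4337 through a median of 5189 to 6361 normalized counts on laminin and from 4183 through 5174 to 5832 on Matrigel. The laminin and the Matrigel libraries covered nearly the same range. The level on laminin was 1.03-fold that on Matrigel, with an interval from 0.922 to 1.14-fold. Dag1, which encodes dystroglycan, had a lowest, median and highest value of 947, 1473 and 2544 on laminin and of 1063, 1508 and 3291 on Matrigel, a difference of -0.12 (interval -0.35 to 0.12). Rpsa, a ribosomal protein also described as a laminin receptor, differed by -0.08 ± 0.07 (SE).

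The α chains varied more. Itga3 (chr11:95044475-95076844) had the smallest unadjusted p of these receptors, 0.055. Its values ran from 82.3 through 178 to 330 on laminin and from 144 through 243 to 491 on Matrigel. Pooled over treatments, the coatings thus overlapped over most of the range. Within treatments, laminin and Matrigel values ran from 206 to 330 and from 242 to 491 in naive cultures. Under IL-1β they ran from 82.3 to 150 and from 144 to 243, a narrow overlap. The difference was -0.45 ± 0.23 (SE), with -0.29 in naive and -0.60 in IL-1β-treated cultures. Itga3 and Dag1 were the 2 receptors of this list that the same fit called for the cytokine: both fell with IL-1β, by 1.02 and 0.82 on the log2 scale (limma adjusted p = 0.0020 and 1.3e-06). Itga6, the α chain of the other major laminin integrins, ran from 137 through 369 to 1167 on laminin and from 86.4 through 470 to 1108 on Matrigel, a difference of 0.02 (interval -0.87 to 0.90). Itga7, the muscle and Schwann cell laminin integrin, had a median of 306 on laminin and 215 on Matrigel (difference 0.38, interval -0.12 to 0.87). Itgb4, the partner of α6 in hemidesmosomes, was low, with medians of 30.8 and 74.3 and an interval from -1.53 to 1.00, the only one of the 8 that left a 2-fold difference possible. Bcam, an immunoglobulin superfamily receptor for laminin α5, differed by -0.22 (interval -0.88 to 0.44).

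Receptors for collagen, the ligand that Matrigel adds, gave 0 of 8 called and 0 of 8 at an unadjusted p under 0.05. The median difference was -0.12, 1 of 8 lay above 0, and 5 intervals lay within 2-fold. Ddr2, the discoidin receptor of mesenchymal cells, had a lowest, median and highest value of 870, 1582 and 2071 on laminin and of 1002, 1582 and 1999 on Matrigel, and the coatings covered nearly the same range. Ddr1 differed by -0.05 (interval -0.30 to 0.20) and Ddr2 by -0.07 (-0.32 to 0.18), so both intervals lay within 1.5-fold. The collagen integrin chains were less precise. Itga1 had medians of 482 and 470 and a difference of -0.08 (interval -0.84 to 0.68), Itga2 had medians of 56.5 and 69.1, and the interval of Itga11 ran from -2.21 to 1.39. Adgrg6, an adhesion G protein-coupled receptor that binds collagen IV and laminin and is needed for Schwann cell myelination, differed by -0.28 (interval -0.93 to 0.36). Of 9 further integrin chains, most of which bind the RGD motif of fibronectin and vitronectin, 0 were called. Itgb3 had the smallest unadjusted p among them (0.071), with medians of 115 on laminin and 102 on Matrigel. The difference of Itgb3 was 0.89, with -0.25 in naive and 2.03 in IL-1β-treated cultures, none of which passed the adjustment.

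**Figure D2:**
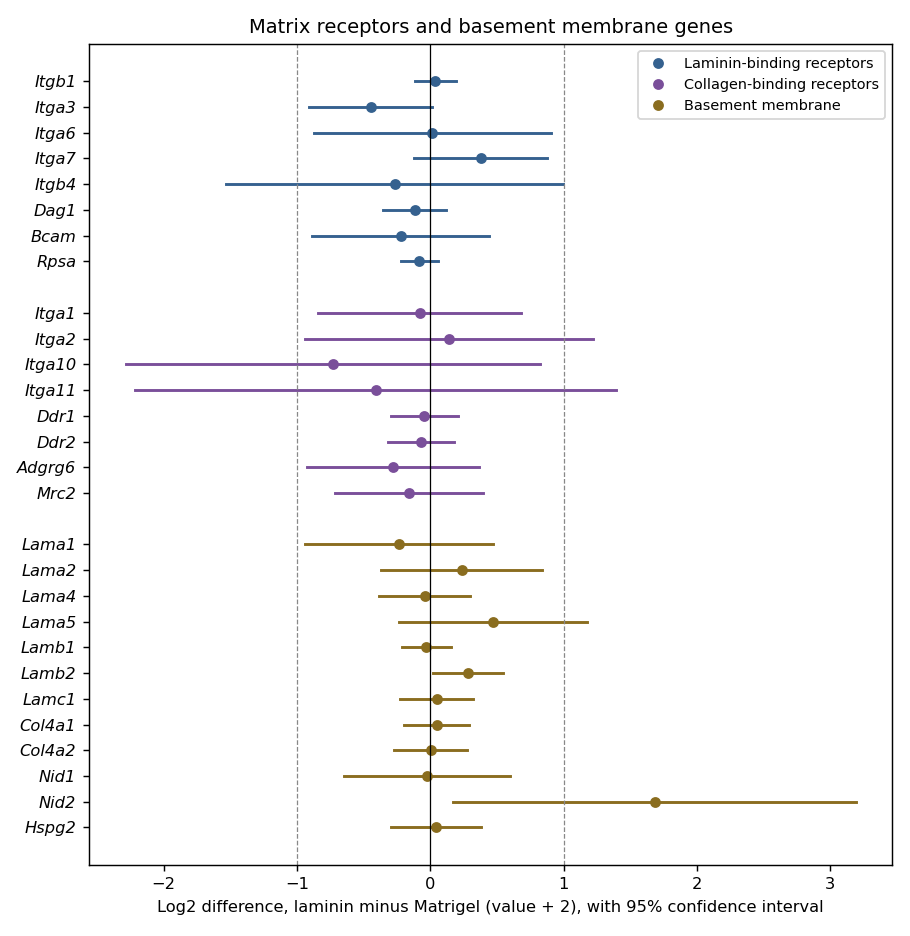
Log2 difference (point) and 95% confidence interval (line) of laminin minus Matrigel for 8 laminin-binding receptors, 8 collagen-binding receptors and 12 basement membrane genes, from 10 libraries on each coating. Dashed lines mark a 2-fold change, and the intervals of Lamb2 and Nid2 alone do not reach 0, without an adjustment for the number of genes.

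The cells' own basement membrane genes followed the same course. Of 28 members, 26 were tested and 0 were called. Above 0 lay 17 of the 26, the median difference was 0.05, 17 intervals lay within 2-fold, and 2 members (Lamb2 and Nid2) had an unadjusted p under 0.05, against 3.22% of all genes. The chains of the laminin trimer were led by Lamb1, with a lowest, median and highest value of 3067, 4354 and 5416 on laminin and of 3464, 4375 and 5397 on Matrigel (difference -0.03, interval -0.21 to 0.15). Lamc1, the γ1 chain, differed by 0.05 (interval -0.23 to 0.32). Lamb2, the β2 chain of synaptic and Schwann cell laminins, ran from 708 through 1065 to 1454 on laminin and from 520 through 828 to 1279 on Matrigel. This was 1.22-fold (interval 1.02 to 1.46, limma adjusted p = 0.95), and the coatings overlapped in their middle range. Lama5, an α chain of many adult basement membranes, had medians of 107 and 72.1 (difference 0.47, interval -0.23 to 1.17).

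The non-laminin parts of the basement membrane, which Matrigel supplies and laminin does not, gave intervals around 0 at the well expressed genes. Col4a1, an α chain of the collagen IV network, ran from 3766 through 5086 to 8794 normalized counts on laminin and from 3842 through 4956 to 8891 on Matrigel, 0.05 apart on the log2 scale (interval -0.20 to 0.29). Nid1, the nidogen that links the laminin and the collagen IV networks, had medians of 3392 and 3319 and an interval from -0.65 to 0.60. Hspg2, which encodes perlecan, differed by 0.05 (interval -0.29 to 0.38). Nid2, the second nidogen, was low, with a lowest, median and highest value of 0, 23.8 and 82.5 on laminin and of 0, 2.36 and 27.4 on Matrigel. The Matrigel libraries under IL-1β were the low ones, with 3.78, 0, 0, 0 and 0.952, and Nid2 differed by 1.68 (interval 0.17 to 3.19, limma adjusted p = 0.95).

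**Figure D3:**
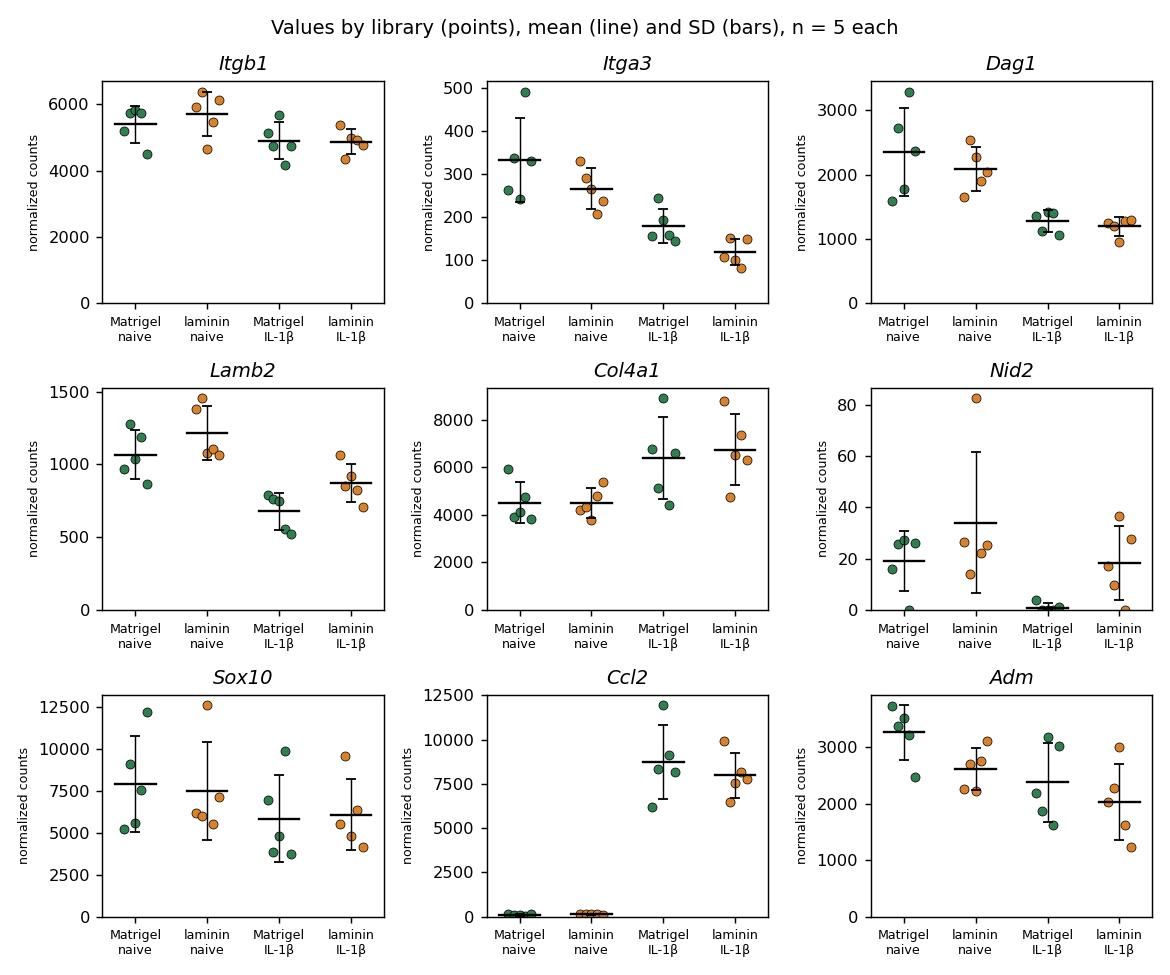
Normalized counts of 9 genes in each library, by coating and treatment, with the mean (line) and SD (bars, cut at 0) of 5 libraries. Laminin and Matrigel points overlap in every gene shown, whereas Ccl2 separates IL-1β-treated from naive cultures on both coatings.

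Genes of the interstitial matrix gave 0 of 35 called, with a median difference of 0.02. Postn, a matricellular protein of mesenchymal cells, had the smallest unadjusted p among them (0.046), with a lowest, median and highest value of 425, 837 and 2051 on laminin and of 286, 629 and 1059 on Matrigel. Its highest laminin values came from naive cultures 2 and 5, and the other 8 laminin libraries lay within 425 to 1204. Fn1, which encodes fibronectin, differed by 0.18 ± 0.14 (SE) from medians of 10614 and 9356. Of 35 matrix proteases and inhibitors, 0 were called, and 1 in each direction had an unadjusted p under 0.05. Adamts9, a protease of the proteoglycans versican and aggrecan, ran from 24.5 through 128 to 267 on laminin and from 159 through 210 to 272 on Matrigel, a difference of -0.75 (interval -1.32 to -0.18). The difference of Adamts9 was -0.40 in naive cultures, where the coatings overlapped. It was -1.09 under IL-1β, where the highest laminin value was 139 and the lowest Matrigel value 159. Adamts9 was named for its small p in these same values, so this separation is no further evidence. Timp4, an inhibitor of metalloproteinases, was listed at 0 in all 5 Matrigel naive libraries and at 41.6, 48.2, 20.3, 51.5 and 0 in the laminin naive ones. Under IL-1β, Timp4 was listed at 0 in 4 of 5 libraries on each coating, with 10.0 in the other Matrigel library and 14.8 in the other laminin library.

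**Figure D4:**
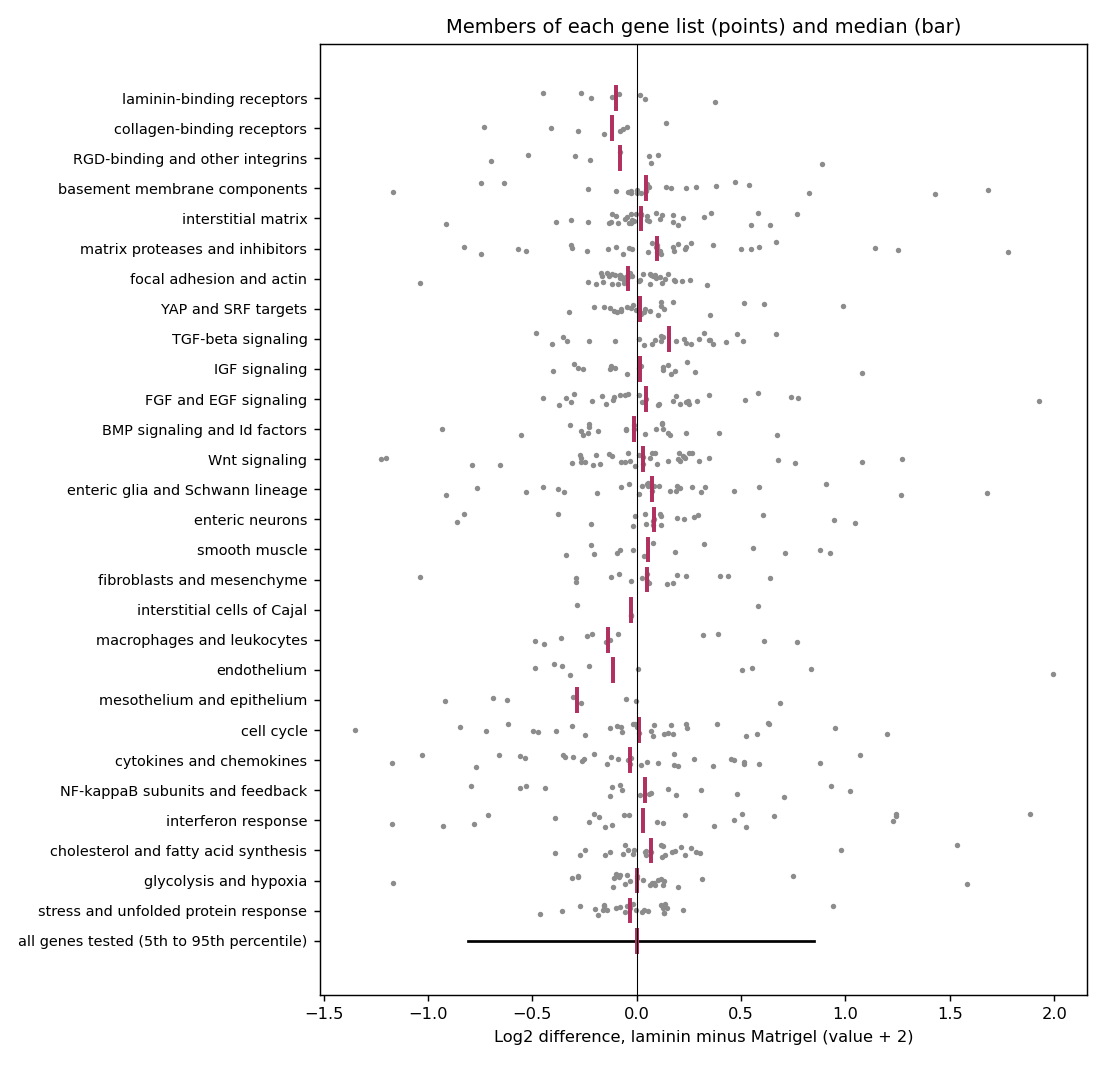
Log2 difference of laminin minus Matrigel for the members of 28 gene lists (points) with the median of each list (bar), and the median and the 5th to 95th percentile over all 19271 genes in the bottom row. List medians lie near 0, between -0.29 for mesothelium and epithelium and 0.16 for TGF-beta signaling.

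Adhesion to the matrix is relayed to the cell through focal adhesions, plaques of talin, vinculin, kindlin and paxillin that tie integrins to actin. Among 43 genes of focal adhesions, caveolae and the actin cytoskeleton, 0 were called, and 41 intervals lay within 2-fold, with a median half-width of 0.26 on the log2 scale. This was the most closely bounded of the lists with more than 10 tested members. Their median difference was -0.04. Fermt2, the kindlin that activates integrins, was the only member with an unadjusted p under 0.05 (0.046), with a lowest, median and highest value of 928, 1084 and 1292 on laminin and of 714, 943 and 1326 on Matrigel, a difference of 0.26 (interval 0.00 to 0.51). Cavin1, a coat protein of caveolae, differed by -0.12 ± 0.06 (SE) from medians of 11249 and 12552. Cavin2, another caveolar coat protein outside this list, had medians of 2205 and 2457 and a difference of -0.33 (interval -0.56 to -0.11). Of 26 targets and partners of YAP and SRF, transcription regulators that respond to the stiffness and spread of a cell, 0 were called, and Vgll4 had the smallest unadjusted p (0.088).

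Growth factors retained in Matrigel act through pathways whose members and targets can be read in the transcriptome. In the TGF-β list, 20 of 26 members lay above 0 and the median difference was 0.16, beside 50.4% and 0.0034 over all genes, with 0 called and 0 at an unadjusted p under 0.05. Smad3, a transcription factor of the pathway, ran from 366 through 510 to 1070 on laminin and from 271 through 399 to 647 on Matrigel (difference 0.35, interval -0.01 to 0.70). Inhba, the activin A subunit, had medians of 348 and 230 and a difference of 0.67 (interval -0.02 to 1.35). IGF signaling had 10 of 18 members above 0 and a median of 0.02, with Akt1, a kinase downstream of the receptor, at 0.16 ± 0.10 (SE). FGF and EGF signaling had 18 of 31 above 0 and a median of 0.04. In that list the FGF receptor gene Fgfr1 had a lowest, median and highest value of 725, 865 and 1133 on laminin and of 606, 714 and 1023 on Matrigel (0.25, interval -0.02 to 0.52), and Areg, an EGF receptor ligand, had medians of 20.5 and 0. BMP signaling had 10 of 23 and Wnt signaling 22 of 41 members above 0, with medians of -0.01 and 0.03 and 0 called. Bmp4, the BMP ligand of gut mesenchyme, had medians of 496 and 876 (difference -0.32, interval -0.82 to 0.18), and Gsk3b, a kinase that restrains Wnt signaling, had medians of 999 and 875 (0.23, interval -0.04 to 0.50).

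Enteric glia are neural crest-derived support cells of the gut's nervous system, marked by Sox10, S100b and Gfap. All 7 glial markers used to check the labelled cell type were present. Their summed level ran from 7999 through a median of 11269 to 21419 normalized counts on laminin and from 6568 through 11282 to 18839 on Matrigel. The cultures also held other cells on both coatings: the summed fibroblast markers had medians of 35521 and 35887, those of smooth muscle 10171 and 12938 and those of neurons 3479 and 3121. The markers of mesothelium and epithelium together had medians of 622 and 652, with Epcam, an epithelial marker, at 0 in all 20 libraries. Leukocyte markers had medians of 179 and 184 and endothelial markers of 67.0 and 57.6. In these bulk libraries, fewer cells of a type and less RNA per cell cannot be told apart. The summed ranges of the coatings overlapped for each of the 8 cell types checked.

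Sox10 (chr15:79154913-79164490), the lineage-defining transcription factor of glia, ran from 4159 through 6079 to 12590 on laminin and from 3749 through 6263 to 12178 on Matrigel, a difference of 0.01 (interval -0.46 to 0.48). S100b, a calcium-binding protein of glia, differed by 0.03 ± 0.24 (SE). Of 29 tested genes of the enteric glia and Schwann lineage, 0 were called, 20 lay above 0 with a median of 0.07, and 2 had an unadjusted p under 0.05. These were Kcna1, a voltage-gated potassium channel (medians 107 and 58.0, difference 0.91, interval 0.08 to 1.74), and Egr2, a transcription factor of myelinating Schwann cells (medians 14.3 and 2.73). Entpd2, the ecto-ATPase of enteric glia, had medians of 1204 and 959 and differed by 0.31 (interval -0.01 to 0.62). Of 21 neuronal genes 0 were called and 15 lay above 0, with the RNA-binding protein gene Elavl3 at medians of 95.2 and 84.0.

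Markers of the accompanying cells gave no call either. Acta2, smooth muscle actin, had medians of 9529 on laminin and 12455 on Matrigel (difference -0.09, interval -0.83 to 0.64), and Col1a1, collagen I of fibroblasts, had medians of 9527 and 10921 (-0.03, interval -0.59 to 0.54). The intervals of both were wide for such abundant transcripts, since their levels varied several-fold between libraries of 1 coating. Of 10 endothelial genes 0 were called and 5 lay above 0. Their median difference was -0.11, and 0 intervals lay within 2-fold. Pecam1, an adhesion receptor of endothelium, had the smallest unadjusted p among them (0.016). It ran from 3.68 through a median of 47.6 to 134 on laminin and from 0 through 8.99 to 73.7 on Matrigel. Of 33 cell cycle genes 0 were called and 18 lay above 0. Mki67, the proliferation marker, had medians of 32.7 and 50.4 (difference -0.50, interval -1.58 to 0.58), and Mcm4, a subunit of the replicative helicase, had medians of 152 and 69.9 (0.64, interval -0.08 to 1.35).

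Whether the coating alters the immune response of glia can be asked of the genes that answer IL-1β. Of 33 tested cytokines and chemokines, the cytokine called 23, all higher, where it called 4.83% of all genes tested, and the coating called 0, with a median difference of -0.03. The coating term averages naive and treated cultures and does not test the response. The interaction of coating and treatment, which does, called 0 of the 33 and 0 of all 19271 genes. Ccl2, the monocyte chemoattractant, ran from 6459 through 7753 to 9896 normalized counts on laminin and from 6184 through 8336 to 11936 on Matrigel under IL-1β, and from 85.7 to 157 and from 55.1 to 127 in naive cultures. IL-1β raised it by 6.14 on the log2 scale (limma adjusted p = 2.8e-34), and the coatings differed by 0.18 (interval -0.13 to 0.49), a sign that turned with limma-voom (-0.10). Within treatments, the difference of Ccl2 was 0.47 in naive cultures and -0.12 under IL-1β. Cxcl10, an interferon-induced chemokine, was among the 2 members with an unadjusted p under 0.05 (0.033), with a difference of -2.28 in naive cultures and of -0.07 under IL-1β. Its naive values were low, from 0 to 34.7 on laminin and from 3.77 to 56.2 on Matrigel. The pooled difference of -1.17 ran from -1.44 to -0.24 under other settings of the fit. Of 18 NF-κB subunits and feedback genes, IL-1β called 13, all higher, and the coating and the interaction 0 each. Nfkbiz, a nuclear inhibitor of NF-κB that is induced by IL-1, had a difference of 0.48 (interval -0.03 to 0.99), with 0.94 in naive cultures and 0.02 under IL-1β. Without Matrigel naive library 4, the pooled difference of Nfkbiz was 0.24, and with limma-voom it was 0.14. Of 24 interferon response genes 0 were called, and Ifitm10, a member of the interferon-induced transmembrane protein family, had medians of 35.2 and 12.2 (difference 1.89, interval 0.39 to 3.38, limma adjusted p = 0.95).

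Metabolic lists were close to 0 as well. Of 27 genes of cholesterol and fatty acid synthesis, 0 were called and 17 lay above 0, with a median of 0.07. Acly, which supplies acetyl-CoA, had medians of 814 and 632 on laminin and Matrigel, a difference of 0.29 (interval -0.01 to 0.58). Of 27 genes of glycolysis and the hypoxia response, 0 were called and the median was 0.00. Adm, the hypoxia-inducible peptide adrenomedullin, ran from 1229 through 2275 to 3113 on laminin and from 1621 through 3107 to 3726 on Matrigel, a difference of -0.28 (interval -0.56 to -0.00, limma adjusted p = 0.95). Against poly-L-ornithine, Adm was higher on Matrigel by 1.38 (limma adjusted p = 4.4e-06) and on laminin by 1.10 (limma adjusted p = 0.0017). Slc16a3, a lactate exporter, had medians of 65.8 and 19.0 (difference 1.58, interval 0.29 to 2.87).

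Beyond the lists, the genes with the smallest unadjusted p were taken from genes that averaged 50 or more on their higher coating and had the same sign in both treatments, 12 per direction. Zfp113 (chr5:138139702-138155744), a zinc finger protein, ran from 123 through 221 to 373 on laminin and from 38.0 through 88.4 to 222 on Matrigel. In naive cultures every laminin value lay above every Matrigel value, and under IL-1β they overlapped. The difference was 1.21 ± 0.31 (SE, limma adjusted p = 0.95). Irx3 (chr8:91798511-91801654), a homeobox transcription factor, ran from 0 through 13.8 to 29.3 on laminin and from 23.9 through 48.1 to 99.8 on Matrigel. Pooled over treatments the coatings overlapped, with 2 laminin values above the lowest Matrigel value. Within each treatment they did not. The highest laminin and lowest Matrigel values were 17.3 and 23.9 in naive cultures and 29.3 and 43.9 under IL-1β. Irx3 differed by -2.38 ± 0.65 (SE, limma adjusted p = 0.95). Zscan20, another zinc finger protein, had medians of 17.5 and 71.6 (-2.63 ± 0.69, SE). The difference of Zscan20 was -1.35 in naive cultures, where the coatings overlapped, and -3.91 under IL-1β. Under IL-1β its highest laminin value was 36.4 and its lowest Matrigel value 66.3. Zfp113, Irx3 and Zscan20 were picked by their p from these same values, so separation within a treatment is no further evidence for them.

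Others on the laminin side were Ighmbp2, a helicase (medians 96.0 and 40.7), Cd93, a lectin-like receptor of endothelium and myeloid cells (93.2 and 23.2), Zcchc24 (938 and 627), Cemip2, a cell-surface hyaluronidase (327 and 202), Pcnx (269 and 171) and Pias4, a SUMO ligase (266 and 174). On the Matrigel side stood Lrch3 (medians 28.9 on laminin and 66.9 on Matrigel), Coprs, a partner of the arginine methyltransferase PRMT5 (269 and 393), Ipo9, a nuclear import receptor (367 and 563), Cldn15, a tight junction claudin (9.22 and 61.7), and Fry (17.5 and 71.9). None of them passed the adjustment, and pooled over treatments their values overlapped between the coatings. In naive cultures alone, the values of Pcnx, Lrch3, Cldn15 and Fry did not overlap. Under IL-1β alone, those of Ighmbp2 did not. The share of all genes that separate within a treatment is not given here. The mitochondrially encoded mt-Nd2, a subunit of respiratory complex I, was the most abundant of the 12 on the Matrigel side, with a lowest, median and highest value of 10063, 11462 and 16822 on laminin and of 11067, 14878 and 19224 on Matrigel, a difference of -0.27 ± 0.08 (SE, limma adjusted p = 0.95).

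The smallest unadjusted p on the laminin side belonged to Dynlt1a (chr17:6306344-6317520), 1 of several near-identical mouse genes for a light chain of the dynein motor. It ran from 15.3 through 155 to 307 on laminin and from 0.00 through 13.1 to 191 on Matrigel, a difference of 3.09 ± 0.71 (SE, limma adjusted p = 0.95). Reads of such copies can be divided among them by the counting. Summed over the 5 Dynlt1 genes, the level was 970 ± 252 (SD, n = 10) on laminin and 945 ± 153 (SD, n = 10) on Matrigel, a log2 difference of 0.01. Mrpl23 (chr7:142532467-142540747), a mitochondrial ribosomal protein, had medians of 44.5 on laminin and 0.00 on Matrigel and a difference of 3.34 ± 0.83 (SE). Together with its copy Mrpl23-ps1, which held most of the counts, the level was 960 ± 231 (SD, n = 10) and 944 ± 144 (SD, n = 10), a log2 difference of 0.00. The single-gene values of both families are therefore uncertain.

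**Figure D5:**
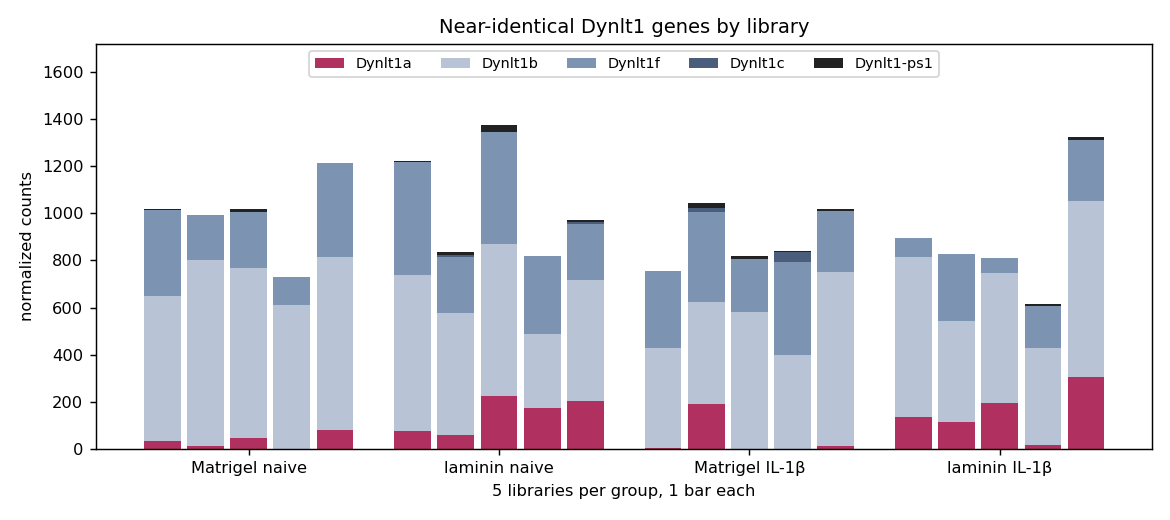
Normalized counts of 5 near-identical Dynlt1 genes stacked in each of 20 libraries, 1 bar per library, by coating and treatment. The segment of Dynlt1a is larger in most laminin libraries, with 191 in Matrigel IL-1β library 2 as an exception, whereas the summed bars average 970 on laminin and 945 on Matrigel.

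Detection was alike on both coatings. Above 15 normalized counts in at least 1 library stood 15512 genes on both coatings, 1915 on laminin only and 1844 on Matrigel only, and 1515 (79.1%) and 1489 (80.7%) of these passed in a single library. The gene above 15 in the most laminin libraries and in no Matrigel library was Ptgs2os, the transcript on the strand opposite Ptgs2, which encodes the prostaglandin synthase COX-2. It was above 15 in 8 laminin and 0 Matrigel libraries, with a median of 30.8 and a highest value of 56.8 on laminin and a highest value of 9.16 on Matrigel (difference 2.85, interval 1.32 to 4.39). Ptgs2 itself had medians of 520 and 574 and a difference of -0.14 (interval -1.46 to 1.18). Ptgs2os was singled out after its values were seen, and the use of strand in the counting is not stated, so its reads and those of Ptgs2 cannot be told apart with certainty. B630019A10Rik stood opposite, above 15 in 8 Matrigel and 0 laminin libraries.

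Within the treatments, laminin against Matrigel gave 0 of 19271 genes in naive cultures (0%), with 617 (3.2%) at an unadjusted p under 0.05, and 0 in IL-1β-treated cultures (0%), with 692 (3.59%). limma-voom called 0 in each, with 736 and 846 genes at an unadjusted p under 0.05. The interaction, which tests whether the coating difference itself differed between treatments, gave 0 genes (0%), 558 (2.9%) at an unadjusted p under 0.05 and a smallest adjusted p of 0.968, and limma-voom gave 0 and 780. Urod, an enzyme of heme synthesis, had naive values of 414, 338, 352, 198 and 354 on laminin and of 486, 469, 435, 916 and 572 on Matrigel, so that no naive laminin value reached a Matrigel one. Under IL-1β it had 493, 704, 592, 490 and 513 on laminin and 465, 509, 331, 338 and 368 on Matrigel. The difference was -0.78 in naive and 0.48 in treated cultures, and the interaction was 1.26 ± 0.35 (SE, limma adjusted p = 0.968). Urod was picked by its interaction p, so its separation in naive cultures is no further evidence. Robo2, an axon guidance receptor, had naive means of 12.4 ± 15.6 on laminin and 74.0 ± 30.1 on Matrigel (SD, n = 5 each) and an interaction of 4.05 ± 1.22 (SE, limma adjusted p = 0.968). Ltv1 had an interaction of 1.81, and Dusp22, a phosphatase, Rhobtb1 and Lrrc40 had interactions of -3.08, -3.49 and -1.91, none of which passed the adjustment.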

How the data were processed

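Enteric glial RNA was measured with QuantSeq 3' libraries in 7 groups of 5 mouse samples, of which the 4 laminin and Matrigel groups were used, with the 10 poly-L-ornithine cultures for context. In Partek Flow, the authors removed adapters (cutadapt), mapped reads with STAR 2.5.3 on mm10, obtained gene-level counts and ran DESeq2. The sources used here state neither the other versions nor the annotation release nor the use of strand. The deposited values are a signal: estimated gene counts divided by 1 size factor per library, for 22180 genes. They are not raw counts, so a count test, foreseen for raw counts, was not used, and the depth in reads is unknown. No column of another series was found.

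Tested were genes above 15 in at least 1 of the 20 libraries. limma 3.58.1 (trend, robust) in R 4.3.3 was fitted on log2(value + 2) with coating and treatment, or with the 4 groups for the within-treatment differences and the interaction, with Benjamini-Hochberg adjustment across 19271 genes. The fit was tested on simulated data. Replicates are labelled as biological. Gene lists are described by counts and medians, and no list was tested as a set. Named are the 12 genes per direction with the smallest p (mean of at least 50 on the higher coating, same sign in both treatments, no clone-like names), up to 3 members per list by smallest p, 3 interaction genes per direction (mean of at least 50) and a fixed set of receptors, matrix, glial and immune genes. Bcam, Itga11, Ptgs2, Ptgs2os and B630019A10Rik were added after their values were seen, and some genes that this rule names are not reported here. The comparison and the lists were chosen with earlier results of these data known. Positions are from RefSeq (GRCm38.p6, the assembly of mm10). Alternatives were other pseudocounts, filters, scalings, limma settings, all 30 culture libraries, replicate blocks and leaving out each library. Figures were drawn with matplotlib 3.10.9 in Python 3.11.15.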

Additional observations from a re-analysis of the deposited data

Results flagged for a closer look

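Single libraries far from the other 4 of their group were found by Dixon's test in 21 of 260 groups of values, where chance gives about 1 in 20. Among genes named for a small p, Dynlt1a had 191 normalized counts in Matrigel IL-1β library 2, Pcnx 392 in laminin naive library 5, Lrrc41 185 in laminin naive library 3, Ipo9 433 in laminin IL-1β library 4 and Urod 916 in Matrigel naive library 4, all above the rest of their group, while Gtf2ird1 (54.0) and Lrrc40 (28.1) were far below it in Matrigel naive library 4. Among matrix genes, Itga7 stood high in Matrigel naive library 2 (573), Itgb4 in laminin naive library 3 (290) and laminin IL-1β library 2 (84.7), and Lama1 in laminin naive library 1 (469), whereas Dag1 (947) was low and Lama2 (236) high in laminin IL-1β library 3. Sox10 was high in laminin naive library 3 (12590), Gfap low in Matrigel IL-1β library 2 (46.0), Ccl2 low in laminin naive library 5 (85.7) and Mki67 high in Matrigel naive library 5 (224). Col1a1 was high in Matrigel IL-1β library 3 (18661) and in laminin IL-1β library 1 (18802). The summed markers of interstitial cells of Cajal reached 92.1 in Matrigel naive library 5 and 19.0 in Matrigel IL-1β library 2.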

How the results depend on the processing

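The count of 0 genes for laminin against Matrigel was also 0 under all 11 alternatives, with a smallest adjusted p of 0.076 (Dynlt1a, serial-rank block). Leaving out single libraries gave 0 to 1 genes: without Matrigel IL-1β replicate 2, Dynlt1a was called (difference 3.57, adjusted p = 0.036). The interaction gave 0 to 3 genes: Gm10801 without Matrigel naive replicate 1 (adjusted p = 0.022), and Gm10801, Gm10721 and Gm21738 without Matrigel IL-1β replicate 1 (adjusted p from 0.024 to 0.028). The share of intervals within 2-fold, 38.9%, was 72.3% with a pseudocount of 10, which shrinks differences of low genes, and 72.3% among genes with a mean of at least 50; without single libraries it ran from 37.3 to 38.5%. Of 859 single-gene values under the other settings, 858 kept their sign and side of the threshold, and Ccl2 turned to -0.10 with limma-voom (cause not tested).

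Leaving out 1 library turned the sign of 14 of 79 genes, all uncalled. Their differences ran from -0.22 to 0.17 for Itga6, -0.23 to 0.075 for Itga1, -0.28 to 0.30 for Itga2, -0.12 to 0.029 for Ddr1, -0.14 to 0.0035 for Ddr2, -0.075 to 0.018 for Lamb1, -0.022 to 0.12 for Lamc1, -0.012 to 0.11 for Col4a1, -0.17 to 0.073 for Nid1, -0.032 to 0.14 for Hspg2, -0.080 to 0.11 for Sox10, -0.11 to 0.16 for S100b, -0.23 to 0.061 for Acta2 and -0.17 to 0.11 for Col1a1.

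The replicate numbers of the titles did not pair the libraries: over 30 pairs, deviations from the group means correlated between -0.16 and 0.10, and no library (0 of 60 comparisons) correlated best with its own number. A block by these numbers left 0 genes for the coating and gave 859 in place of 930 for IL-1β. The rank of the library serial number within its group gave correlations from 0.03 to 0.22, with 54 of 60 best with their own rank, a hint from the data and not from the design. A replicate block by that rank gave 0 genes for the coating within and across treatments and for the interaction, 1405 for IL-1β, and, chosen after seeing the data, 177 for Matrigel and 113 for laminin against poly-L-ornithine. Relabelling within that rank gave an exact permutation p = 0.441 for the separation of the coatings. Low genes limit how closely differences could be bounded, and 10 libraries a side bound few of them.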

Other observations

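All 13 tested mitochondrially encoded protein genes lay below 0 (laminin minus Matrigel), with differences from -0.55 to -0.06 and a median of -0.16 (-0.12 in naive and -0.19 in IL-1β-treated cultures), beside 0.0034 over all genes. They encode subunits of the respiratory chain and of ATP synthase, and most of them are transcribed together, so they are not independent of each other. Of the 13, 8 had an unadjusted p under 0.05 and 0 were called. mt-Cytb, the cytochrome b of complex III, had a lowest, median and highest value of 26748, 32151 and 39558 normalized counts on laminin and of 29186, 36372 and 44838 on Matrigel. mt-Nd4l, a small complex I subunit, had medians of 371 and 486. The share of all counts from mitochondrial genes was 3.08% ± 0.48 on laminin and 3.37% ± 0.43 on Matrigel (SD, n = 10 each). Ribosomal protein genes lay below 0 in 75 of 84, with a median of -0.06. Both groups were picked after the values were seen, which gives them no test.

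The summed markers of some cell types varied with the rank of the library serial number within its group. The summed fibroblast markers of the fourth rank were 70217 and 74891 normalized counts in naive cultures and 66919 and 74125 in IL-1β-treated cultures (Matrigel, then laminin), whereas those of the third rank were 23272, 17731, 11610 and 18308. The summed glial markers of the third rank were 18839 and 21419 in naive and 15740 and 16238 in treated cultures, while those of the second were 9256, 8997, 6568 and 7999. Of the variance of these sums within groups (log2 scale), 95.6% for glia, 92.8% for fibroblasts, 93.4% for mesothelium and epithelium, 86.3% for neurons and 76.9% for smooth muscle lay between ranks, against 2.54 to 19.3% between the replicate numbers of the titles. The shares between ranks were lower for leukocytes (37.7%), interstitial cells of Cajal (17.1%) and endothelium (16%), whose shares between title numbers were 24.6%, 17.4% and 26.4%. What the serial numbers mark is not stated in the labels.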
